A study of Mus musculus with 479 samples.

Results

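The 10 genes followed here are transcriptional targets of YAP and TAZ: Ccn1, Ccn2, Tgfb2, Axl, Crim1, Myof, Amotl2, Ajuba, Ankrd1 and Rbms3. They were chosen by name, as genes commonly used to read YAP and TAZ activity, with earlier results of these data known. All 10 were found among the 24475 gene identifiers of each deposited table. The libraries came from mice of 2 lines, each compared with its own wild-type (WT) littermates: Dchs1 heterozygotes and Fat4 heterozygotes (Het), each made with Regeneron's VelociGene technology and kept on a pure C57BL/6NTac background. Heart, kidney, liver and lung of WT and Het mice of each line gave 16 groups and 479 libraries, 15 groups of 30 and 1 of 29 (Dchs1 Het liver). Each line carries 1 allele. The sources used here give neither its design nor the age or sex of the mice. The labels do not state that each library is a separate mouse, so p-values measure the spread between these libraries, which may in part be technical.

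Dchs1 and Fat4 are giant cadherins. The one is the ligand of the other on an adjacent cell, and in flies their counterparts feed into the Hippo pathway. In that pathway the MST kinases activate the LATS kinases, which phosphorylate the coactivators YAP and TAZ and keep them out of the nucleus. In the nucleus, YAP and TAZ act through TEAD transcription factors, which bind the letters GGAATG or their reverse complement. Among the targets, Ccn1 and Ccn2 encode secreted matrix-associated proteins and Tgfb2 a secreted TGF-beta ligand. Axl encodes a receptor tyrosine kinase, Crim1 a transmembrane protein with BMP-binding repeats, and Myof the membrane-repair protein myoferlin. Amotl2 and Ajuba encode adaptors that act back on the pathway, the first by binding YAP and the second by binding LATS kinases. Ankrd1 encodes an ankyrin-repeat protein of heart muscle, and Rbms3 an RNA-binding protein.

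Promoter sequences are shown for Ccn1, Amotl2, Ajuba and Crim1, which were higher in Dchs1 Het than in WT hearts, and for Ankrd1, the member with the highest heart level. Each is the 250 bases before a RefSeq start site, which for some members lies inside the gene. Sequences run 5′ to 3′ on the gene's strand, in build GRCm38.p6, with every GGAATG or CATTCC in capitals.
Ccn1: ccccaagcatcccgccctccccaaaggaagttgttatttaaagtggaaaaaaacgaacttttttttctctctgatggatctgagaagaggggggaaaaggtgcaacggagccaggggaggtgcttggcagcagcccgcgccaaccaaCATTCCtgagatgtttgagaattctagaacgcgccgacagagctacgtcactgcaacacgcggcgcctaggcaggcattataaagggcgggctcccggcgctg
Amotl2: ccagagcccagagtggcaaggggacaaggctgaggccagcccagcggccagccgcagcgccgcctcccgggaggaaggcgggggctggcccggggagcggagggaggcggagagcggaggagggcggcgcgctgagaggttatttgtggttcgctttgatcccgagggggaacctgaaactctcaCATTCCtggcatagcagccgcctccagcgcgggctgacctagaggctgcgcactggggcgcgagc
Ajuba: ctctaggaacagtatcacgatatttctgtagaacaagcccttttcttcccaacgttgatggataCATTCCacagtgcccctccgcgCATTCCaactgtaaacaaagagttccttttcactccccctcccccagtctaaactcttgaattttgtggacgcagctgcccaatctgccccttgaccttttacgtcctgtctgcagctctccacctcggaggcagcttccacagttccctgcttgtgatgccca
Crim1: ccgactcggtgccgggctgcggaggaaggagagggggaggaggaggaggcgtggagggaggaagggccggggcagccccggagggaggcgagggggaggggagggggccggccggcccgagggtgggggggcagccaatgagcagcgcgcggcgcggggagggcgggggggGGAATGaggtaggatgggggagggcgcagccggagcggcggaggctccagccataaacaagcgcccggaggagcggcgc
Ankrd1: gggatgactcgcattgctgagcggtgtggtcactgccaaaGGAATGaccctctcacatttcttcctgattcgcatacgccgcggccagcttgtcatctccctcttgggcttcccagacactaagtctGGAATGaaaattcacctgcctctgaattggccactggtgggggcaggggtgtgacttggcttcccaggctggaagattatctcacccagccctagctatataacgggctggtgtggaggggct
These windows were chr3:145649986-145650235 on the minus strand for Ccn1, chr9:102717554-102717803 on the plus strand for Amotl2, chr14:54577662-54577911 on the minus strand for Ajuba, chr17:78199998-78200247 on the plus strand for Crim1 and chr19:36119845-36120094 on the minus strand for Ankrd1. The match began 103 bases before the start site in Ccn1, 65 in Amotl2 and 79 in Crim1. Ajuba held a match at 186 and another at 164 bases before the start, and Ankrd1 at 210 and 123. Axl held 1 match, 233 bases before its start (chr7:25788734-25788983, minus strand), while the windows of Myof, Tgfb2 and both start sites of Rbms3 held none. The window of Amotl2 lies wholly inside the gene, which begins at chr9:102717091. That of Tgfb2 (chr1:186705990-186706239, minus strand) also lies inside its gene, which ends at 186709697, as does 1 of the 2 windows of Rbms3. The windows of Crim1 and Axl reach into their genes. All members but Ccn2 were matched in the promoter table, and of these 9, 6 held at least 1 match, and 2 of them held 2. Over the 32851 start sites counted, which leave out 1 chromosome that holds no member, 12.6% held a match in the same window and 1.02% held 2 or more. These shares are per start site, while the members were counted per gene. The AP-1 letters TGANTCA, which read the same on both strands and were counted apart from the TEAD letters, were in 0 of the 9 members' windows and in 6.75% of the 32851 windows. These matches are letters in a window and were not tested for binding.

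Summed estimated counts were 10720364 to 32282525 per library (median 18978025). The targeted gene read as labelled: in the Dchs1 line the Het mean of Dchs1 was 41.0% to 46.6% of the WT mean over the 4 tissues, and in the Fat4 line that of Fat4 was 47.6% to 51.9%, with every Het library below the WT median. In all 479 libraries the marker genes of the labelled tissue (ventricular muscle, proximal tubule, hepatocyte or alveolar type 2 and club cells) had the highest summed TPM of the 4 lists. A few libraries stood apart from their comparison by their correlation with the others: 5 in Dchs1 lung, 1 in Fat4 heart, 5 in Fat4 liver and 1 in Fat4 lung. Library numbers in the labels run in stretches with gaps, and no other hint of a batch was at hand. The longest stretch held 23 to 25 libraries of each genotype in every Dchs1 comparison, 24 of each in Fat4 kidney, and all or nearly all in the other Fat4 comparisons.

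Levels of the members across WT tissues were compared in TPM, which is scaled per gene length and per library. Most members were highest in lung and lowest in liver. Ankrd1 stood out in heart: the lowest, median and highest WT library had 287, 868 and 1440 TPM for the Dchs1 line and 644, 1010 and 1567 TPM for the Fat4 line. Its medians were 38.5 and 33.2 TPM in lung, 1.17 and 1.08 TPM in kidney, and 0.152 and 0.102 TPM in liver (Dchs1 and Fat4 line), where it was listed at 0 in 1 and 5 WT libraries. No WT heart library overlapped any library of another tissue for this gene. In liver it rested on a median of 3 reads per WT library of the Dchs1 line and 2 for Fat4.

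Ccn2 had WT medians of 132 and 143 TPM in heart and 127 and 149 TPM in lung, against 50.0 and 57.1 TPM in kidney and 5.46 and 6.32 TPM in liver. The heart libraries spread most, from 42.0 to 542 TPM (Dchs1 line) and from 49.7 to 533 TPM (Fat4 line), and covered the whole range of lung. Ccn1 was highest in lung (86.3 and 86.8 TPM), then heart (38.1 and 41.4), kidney (12.7 and 12.9) and liver (3.90 and 3.99). Tgfb2 was low throughout, with 11.5 and 12.6 TPM in lung, 3.55 and 3.70 in heart, 0.735 and 0.741 in kidney and 0.205 and 0.230 in liver. In TPM the 3 secreted members thus shared their lowest tissue, liver, with most other members. Ccn1 and Tgfb2 shared their order of all 4 tissues in TPM, and Axl had the same order.

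Myof had the widest range among the membrane members, with WT medians of 53.0 and 45.9 TPM in lung, 3.49 and 4.44 in kidney, 1.85 and 1.90 in heart and 0.582 and 0.613 in liver, and its lung libraries (18.0 TPM and above) did not overlap those of any other tissue. Axl went from 64.7 and 71.9 TPM in lung over 23.1 and 22.5 in heart and 8.81 and 9.80 in kidney to 4.83 and 5.27 in liver. Crim1 had 41.3 and 48.5 TPM in lung, 15.2 and 15.96 in kidney, 11.2 and 11.7 in heart and 3.34 and 4.29 in liver. Of the adaptors, Amotl2 had 84.3 and 89.6 TPM in lung, 24.2 in heart of both lines, 22.5 and 26.3 in kidney and 9.09 and 10.3 in liver. Ajuba had 19.3 and 23.2 TPM in lung, 7.82 and 9.74 in kidney, and near-equal medians in heart (2.74 and 2.75) and liver (2.78 and 2.67). Rbms3 had 25.0 and 28.4 TPM in lung, 4.97 and 4.48 in kidney, 2.97 and 3.03 in heart and 0.933 and 1.14 in liver. In bulk tissue a gene's level in a tissue and the share of cells expressing it cannot be told apart.

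**Figure D1:**
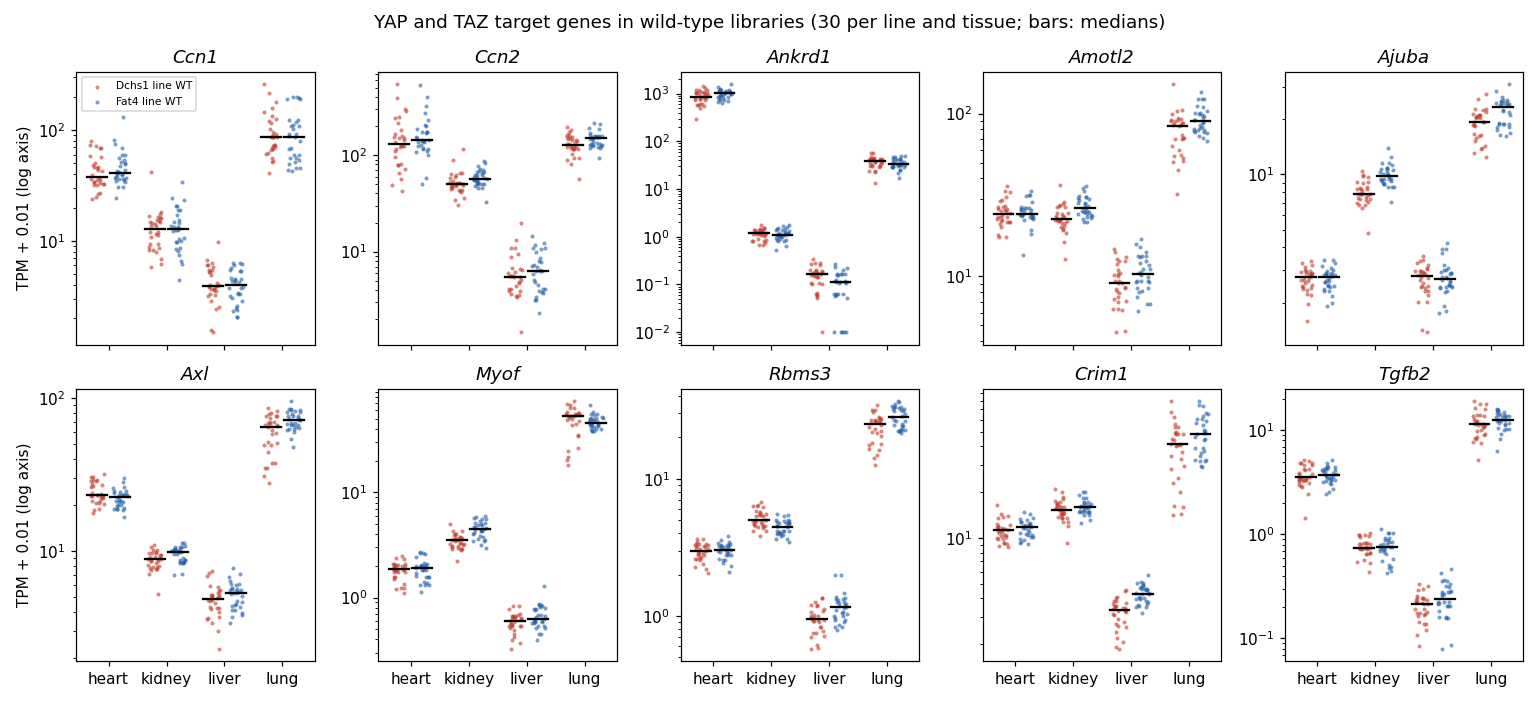
TPM plus 0.01 (log axis) of each of the 10 genes in every WT library by tissue, 30 libraries per line and tissue, with the Dchs1 line in red, the Fat4 line in blue and bars at the medians. Ankrd1 is highest in heart (868 and 1010 TPM), the others except Ccn2 are highest in lung, and liver is lowest or level with heart throughout.

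The differences between WT tissues were tested with edgeR's quasi-likelihood F test on TMM-scaled counts, averaged over the lines, with Benjamini-Hochberg (BH) adjustment over the 16464 genes tested. Called members numbered 9 of 10 for heart against kidney, where 91.3% of all genes were called, 9 for heart against liver (92.4%), 10 for heart against lung (92.3%), 10 for kidney against liver (91%), 9 for kidney against lung (93%) and 10 for liver against lung (95%). The members' shares are near these backgrounds and say nothing particular of them. The pairs not called were Crim1 in heart against kidney (log2 difference 0.03 ± 0.045 SE, adjusted p = 0.551), Ajuba in heart against liver (0.03 ± 0.038, adjusted p = 0.447) and Ccn2 in kidney against lung (-0.18 ± 0.099, adjusted p = 0.0788). With DESeq2's size factors in edgeR each was called: Crim1 at 0.097 (adjusted p = 0.0369), Ajuba at 0.15 (0.000125) and Ccn2 at -0.25 (0.0136). By limma on log2(TPM + 1), Ccn2 was -1.29 (adjusted p = 2.64e-30) and Crim1 -0.43 (3.82e-12), while Ajuba was not called (-0.0013). These pairs are thus not shown to be equal. TMM scaling and TPM place whole tissues differently: the median gene differed between heart and lung by -0.18 on the TMM log2 scale and by -1.30 on the log2(TPM + 1) scale, and between heart and kidney by -0.06 and -0.34. Ccn1 and Axl were higher in heart than lung on the TMM scale, by 0.43 ± 0.10 and 0.22 ± 0.034, and lower on the log2(TPM + 1) scale, by -1.01 and -1.43. Amotl2 was higher in heart than kidney on the TMM scale (0.48 ± 0.047) and not on the other (-0.01), and Ccn2 in heart against lung, 1.82 ± 0.10 on the TMM scale, was not called on the other (0.09, limma adjusted p = 0.376).

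Within a WT group, the members differed in how much the libraries varied. The biological coefficient of variation of Ccn1 was 0.302 to 0.496 over the 8 WT groups and exceeded that of 94.0% to 99.3% of genes with a mean of at least 1 CPM. Ccn2 was as variable in heart (0.544 and 0.457 in the Dchs1 and Fat4 line) and liver (0.485 and 0.442), where it exceeded 97.8% to 99.1% of genes, but not in lung (0.158 and 0.157), where it exceeded 30.9% and 75.9%. Ankrd1 exceeded 95.5% and 92.2% of genes in heart. Ajuba, Axl and Rbms3 lay between 21.2% and 81.1% in all 8 groups. No test of these ranks was made.

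Members were correlated across the WT libraries of 1 line and tissue, on log2 CPM, for every pair with a mean of at least 1 CPM. Of the 326 pair-by-group relations, 33 were positive and 4 negative with both Pearson's r and Spearman's rho at an adjusted p under 0.05 (permutation test with 100000 resamples, two-sided, BH over the 326). The share of calls among pairs of other genes was not computed, so these counts are not read as particular to the members. Heart held 16 of the positive ones, 9 for the Dchs1 and 7 for the Fat4 line, and lung held 12. The lead of heart depended on the scale: on log2(TPM + 1) the positive calls numbered 103, and the median rho over pairs was 0.54 and 0.53 in lung against 0.34 and 0.32 in heart (Dchs1 and Fat4 line), while on log2 CPM it was 0.14 and 0.086 in lung against 0.28 and 0.17 in heart. In heart, Ccn1 and Ccn2 rose and fell together in both lines: r = 0.78 and rho = 0.79 for Dchs1 WT, r = 0.89 and rho = 0.83 for Fat4 WT (n = 30 each, permutation p = 1e-05, the smallest these resamples can give, adjusted p = 0.000407 for r and 0.000543 for rho), and r = 0.74 and 0.80 without the 2 libraries farthest from the median of Ccn1. Within the longest Dchs1 stretch r was 0.79, and all Fat4 WT hearts belong to 1 stretch. In liver the same pair had r = -0.61 and rho = -0.46 in the Dchs1 line (permutation, adjusted p = 0.00548 and 0.0825) and r = -0.36 and rho = -0.37 in the Fat4 line (0.196 and 0.181), so it was called in neither, and r in the Dchs1 line was -0.32 without the 2 farthest libraries.

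Ccn2 and Amotl2 had r = 0.84 and rho = 0.85 in Dchs1 WT heart (permutation p = 1e-05, adjusted p = 0.000407 and 0.000543), and r = 0.60 and rho = 0.37 in Fat4 WT heart (adjusted p = 0.00913 and 0.181, permutation), so this pair was called in 1 line. Without the 2 farthest libraries r was 0.87 and 0.46, and within the longest Dchs1 stretch 0.85. Ankrd1 and Tgfb2 had r = 0.84 and rho = 0.79 in Dchs1 WT heart (adjusted p = 0.000407 and 0.000543, permutation) and r = 0.61 and rho = 0.62 in Fat4 WT heart (adjusted p = 0.00524 and 0.00826, permutation), and r = 0.72 and 0.57 without the 2 farthest libraries. In Dchs1 WT lung, Axl and Myof had r = 0.88 and rho = 0.80 (permutation, adjusted p = 0.000407 and 0.000543), but r = 0.55 within the 24 libraries of the longest stretch. Ankrd1 and Axl were negative in lung, with r = -0.67 and rho = -0.61 in the Dchs1 line (permutation, adjusted p = 0.00163 and 0.0104) and r = -0.51 and rho = -0.53 in the Fat4 line (0.0294 and 0.0280). This pair had r = -0.28 within the longest Dchs1 stretch and r = 0.24 on the TPM scale in the Fat4 line. Over the 8 groups or the 6 with both genes measured, the pairs with the highest median rho were Ankrd1 with Ajuba (0.40) and Axl with Myof (0.40).

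**Figure D2:**
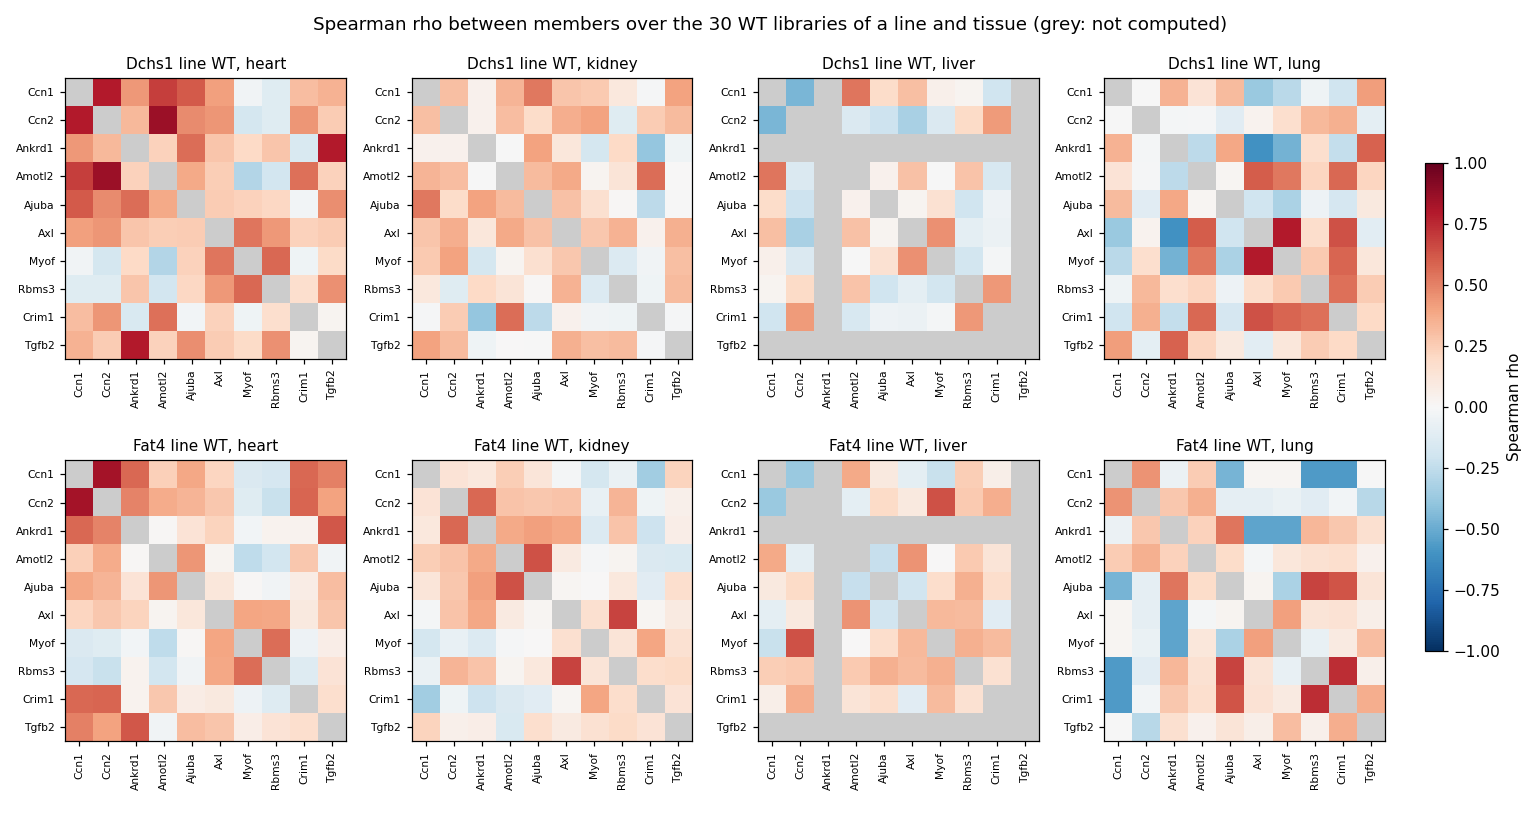
Spearman's rho between each pair of the 10 genes over the WT libraries of 1 line and tissue (30 libraries each), red for positive and blue for negative values, grey where a gene was under 1 CPM or paired with itself. The deepest red cell is Ccn2 with Amotl2 in heart of the Dchs1 line (0.85). Ccn1 with Ccn2 is red in heart of both lines (0.79 and 0.83), while the same pair is blue in liver (-0.46 and -0.37).

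Among 10402 genes with a mean of at least 1 CPM in all 8 WT groups, the genes most like each member were listed by the median rho over the 8 groups (n = 30 each), as a description of libraries that share depth and handling. Crim1 had the closest partners, Bmpr2 (0.81), Mbnl2 (0.80) and Fcho2 (0.79). Rbms3 was followed by Nr2f2 (0.66), Ddr2 (0.64) and Gucy1a1 (0.64), Axl by Pla2g4a (0.60), Dse (0.57) and Dock10 (0.54), and Myof by Sulf1 (0.58), Sort1 (0.58) and Iqgap1 (0.56). For Ajuba they were Usp36 (0.56), Tnfrsf1a (0.54) and Tsc22d4 (0.53), for Ccn2 Cdkn1a (0.56), Retreg1 (0.55) and Cebpd (0.54), for Amotl2 Dcaf10 (0.49), Sirt1 (0.48) and Spry4 (0.48), and for Ccn1 Gse1 (0.48), Bdnf (0.45) and Iffo2 (0.43). Several of these partners had a negative rho in at least 1 group. The lowest values were -0.61 for Ccn1 with Gse1, -0.48 for Ccn1 with Iffo2 and -0.27 for Ajuba with Tsc22d4. Others were -0.22 for Rbms3 with Nr2f2, -0.20 for Myof with Sort1, -0.14 for Axl with Pla2g4a and -0.053 for Amotl2 with Sirt1. For the 3 partners of Crim1 the lowest rho was 0.67 to 0.71. No member was among the 3 genes most like another member. Ankrd1 and Tgfb2 were under the 1 CPM minimum in liver and had no such list.

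Het and WT libraries were compared within each line and tissue on TMM-scaled CPM, by edgeR's quasi-likelihood F test with BH adjustment over all genes tested and a threshold of 0.05. A member was called in 21 of 39 tests in the Dchs1 line, 15 higher and 6 lower in Het, and in 1 of 39 Fat4 tests, lower in Het. Over all genes tested, 9.6% to 26.1% were called higher and 10.4% to 25.4% lower in the Dchs1 comparisons. In the Fat4 comparisons these shares were 0.11% to 9.21% and 0.0259% to 7.87%, so calls were fewer there for genes at large too. Ankrd1 in liver was under the count filter in both lines, with median Het and WT levels of 0.182 and 0.168 CPM (Dchs1) and 0.117 and 0.107 CPM (Fat4). Called changes ranged in size from 0.12 to 1.08 on the log2 scale. In bulk tissue, fewer cells of a type and less RNA per cell cannot be told apart, here and in all comparisons that follow.

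**Figure D3:**
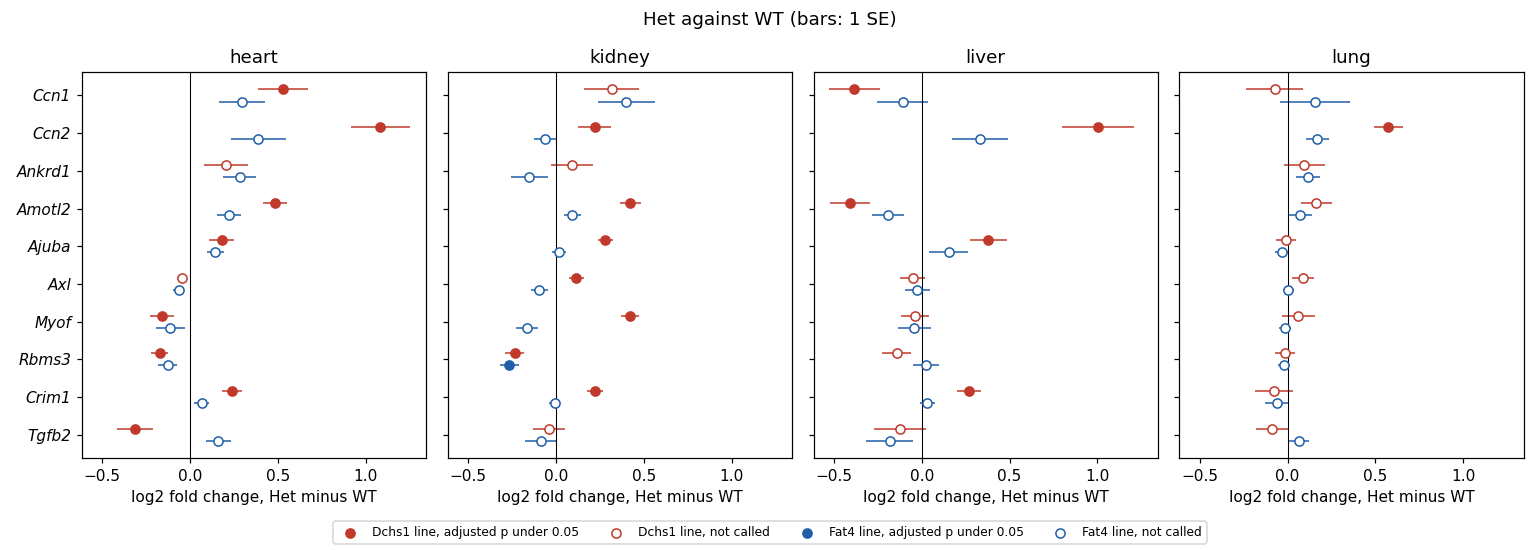
Log2 fold change of Het against WT (x axis, bars 1 SE) for the 10 genes in each tissue, with the Dchs1 line in red, the Fat4 line in blue and filled points for an adjusted p under 0.05. In the Dchs1 line 21 of 39 points are filled, with Ccn2 the farthest right in heart (1.08), liver (1.004) and lung (0.57). In the Fat4 line only Rbms3 in kidney (-0.26) is filled. Calls over all genes were also fewer in the Fat4 line (0.11% to 9.21% higher, 0.0259% to 7.87% lower). In the Dchs1 line they were 9.6% to 26.1% higher and 10.4% to 25.4% lower.

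In Dchs1 heart, 5 members were higher and 3 lower in Het than WT among 10 tested, where 26.1% of all 13304 genes tested were called higher and 24.1% lower. Ccn2 changed most: WT libraries had 77.2, 215.6 and 866 CPM (lowest, median, highest) and Het libraries 189, 533 and 795 CPM. The groups overlapped in range, but 29 of 30 Het libraries lay above the WT median, and Ccn2 rose by 1.08 ± 0.17 (log2, SE, n = 30 each, edgeR adjusted p = 2.87e-07). Ccn1 had 33.7, 55.4 and 112 CPM in WT and 40.0, 81.3 and 185 CPM in Het, with 9 Het libraries above the highest WT, and rose by 0.53 ± 0.14 (adjusted p = 0.00144).

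Of the members, the adaptors Amotl2 and Ajuba were also higher in Dchs1 heart. Amotl2 had 52.1, 73.0 and 107 CPM in WT and 68.7, 103 and 158 CPM in Het, and 14 of 30 Het libraries exceeded every WT library (0.48 ± 0.070, edgeR adjusted p = 5.17e-08). Ajuba had 4.23, 7.01 and 8.11 CPM in WT and 4.98, 8.30 and 10.3 CPM in Het. The widest gap between neighbouring Het libraries, located after the values were seen, left 12 at 6.999 CPM or less and 18 at 8.10 CPM or more. In that gap lay 14 WT libraries, and whether the Het libraries form separate sets was not tested. Of the 18, 17 exceeded every WT library, and the fitted change over all 30 was 0.18 ± 0.070 (adjusted p = 0.0283). Crim1 went from a median of 49.7 to 58.4 CPM (0.24 ± 0.056, adjusted p = 0.000279), with 25 of 30 Het libraries above the WT median and full overlap of the ranges.

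Tgfb2, Rbms3 and Myof were lower in Dchs1 Het hearts. Tgfb2 fell from 4.81, 12.6 and 17.5 CPM in WT to 3.82, 10.3 and 16.5 CPM in Het, with 23 of 30 Het libraries under the median WT value (-0.31 ± 0.10, edgeR adjusted p = 0.00832). Rbms3 went from a median of 16.5 to 15.0 CPM (-0.17 ± 0.049, adjusted p = 0.00256) and Myof from 9.54 to 8.32 CPM (-0.16 ± 0.070, adjusted p = 0.0499). Axl (-0.04 ± 0.030) and Ankrd1 (0.20 ± 0.125) were not called, with Ankrd1 medians of 1113 CPM in WT and 1198 CPM in Het. The Myof and Ajuba calls were lost within the longest stretch (adjusted p = 0.110 and 0.0825) and by limma on log2(TPM + 1) (0.0951 and 0.0785), and Myof also without a filter on low counts (0.0531). Among the 6 WT and 6 Het libraries outside that stretch, the changes were 1.11 for Ccn2 and 0.43 for Amotl2, both called. None of the other 6 was called there, where 1067 of 13293 genes were called. The values that moved most were 0.32 for Ccn1, -0.02 for Tgfb2 and -0.0076 for Rbms3.

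Marker lists were counted in the same hearts, where 26.1% of all genes were called higher and 24.1% lower. Counts near these shares are not read as particular to a list. Of 10 fibroblast markers 6 were lower and 2 higher, among them Col3a1 (-0.93) and Lum (-0.60), with a summed level of 1738, 2153 and 2774 CPM in WT and 1562, 2007 and 2566 CPM in Het. Of 8 ventricular muscle markers 5 were lower, among them Actc1 (-0.44) and Pln (-0.34), with a sum of 40653, 45992 and 56080 CPM in WT and 36411, 41868 and 54998 CPM in Het. Of 10 endothelial markers 5 were higher and 1 lower, Pecam1 rising by 0.29 and Kdr falling by 0.25, with sums of 723 to 914 CPM in WT and 773 to 997 CPM in Het. Of 14 immediate early genes, which respond to handling of tissue as well as to growth signals, 4 were higher, among them Atf3 (0.85) and Btg2 (0.63), with sums of 174 to 410 CPM in WT and 203 to 391 CPM in Het. The part of these lists in the members' changes was not tested.

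In Dchs1 kidney, 6 members were higher and 1 lower in Het among 10 tested, against 23.4% of 14142 genes higher and 23.8% lower. Myof separated the groups most: WT libraries had 14.2, 17.3 and 21.3 CPM and Het libraries 17.2, 23.3 and 35.7 CPM, and 22 of 30 Het libraries exceeded every WT library (0.42 ± 0.051, edgeR adjusted p = 3.02e-10). Its direction was the opposite of that in Dchs1 heart. Amotl2 had 51.3, 68.5 and 98.7 CPM in WT and 60.9, 90.8 and 122 CPM in Het, with 28 of 30 Het libraries above the WT median (0.42 ± 0.059, adjusted p = 1.79e-08). Ajuba had 16.4, 19.2 and 24.1 CPM in WT and 19.8, 23.1 and 32.002 CPM in Het, and all 30 Het libraries lay above the WT median (0.28 ± 0.044, adjusted p = 3.19e-07).

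Crim1 rose from 51.0, 64.0 and 81.6 CPM to 56.6, 77.8 and 95.05 CPM in Dchs1 kidney (0.22 ± 0.044, edgeR adjusted p = 3.36e-05). Ccn2 had 55.7, 84.2 and 191 CPM in WT and 61.0, 101 and 156 CPM in Het (0.22 ± 0.093, adjusted p = 0.0469), and Axl a median of 30.8 CPM in WT and 33.3 CPM in Het (0.12 ± 0.043, adjusted p = 0.0213). The Ccn2 and Axl ranges overlapped almost wholly. Rbms3 fell from 20.3, 28.1 and 37.5 CPM to 18.1, 24.1 and 30.3 CPM, with 27 of 30 Het libraries under the median WT value (-0.24 ± 0.055, adjusted p = 0.000333). Ccn1 (0.32 ± 0.16), Ankrd1 (0.09 ± 0.12) and Tgfb2 (-0.04 ± 0.090) were not called. The Ccn2 call was lost without a filter on low counts (adjusted p = 0.0510), with the stretch as a covariate (0.0523) and within the longest stretch (0.126).

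**Figure D4:**
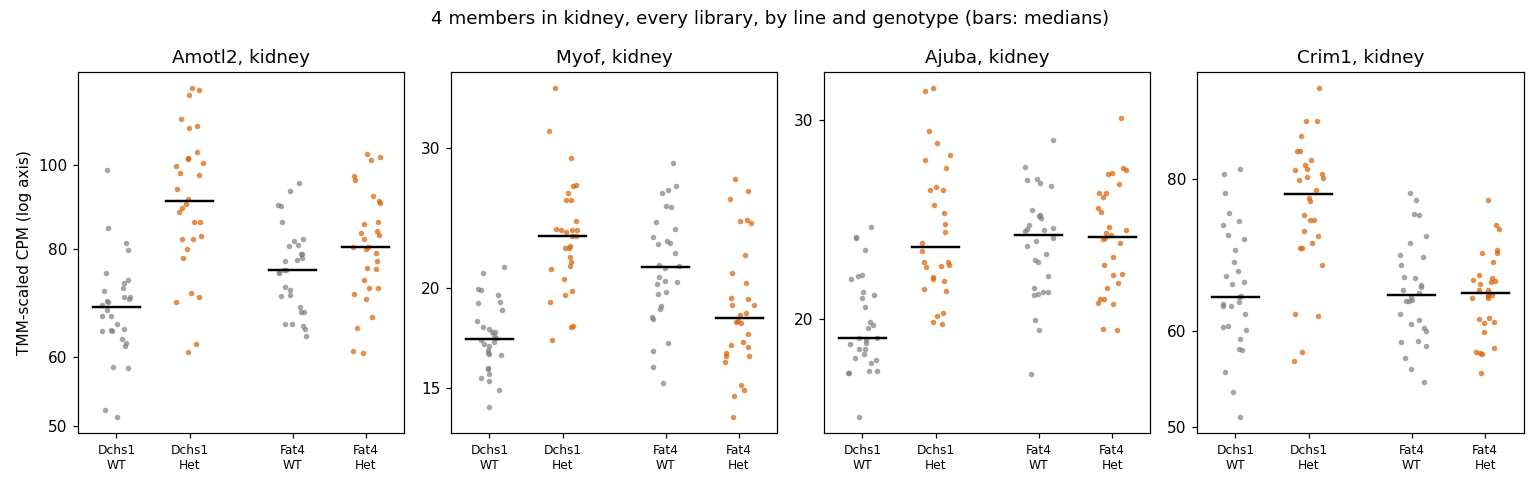
TMM-scaled CPM (log axis) of Amotl2, Myof, Ajuba and Crim1 in every kidney library, grey for WT and orange for Het, with bars at the medians. They are 4 of the 6 genes whose Het change in kidney differed between the lines, chosen after their values were seen. In the Dchs1 line the Het median is above the WT median in all 4 panels (90.8 against 68.5 CPM for Amotl2), while in the Fat4 line Myof is lower in Het (18.4 against 21.3 CPM).

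Proximal tubule markers moved strongly in the same kidneys: 5 of 6 were lower in Het, among them Miox (-0.59) and Kap (-0.74), and their sum was 16835, 22743 and 26591 CPM in WT and 10136, 13567 and 18393 CPM in Het. Of 10 fibroblast markers 2 were higher and 1 lower, with sums of 257 to 513 CPM in WT and 217 to 502 CPM in Het, and of 10 endothelial markers 1 was lower (Tie1, -0.17), with sums of 438 to 662 CPM in WT and 421 to 662 CPM in Het. Of 8 macrophage markers 2 were higher and 2 lower, of 6 hepatocyte markers 3 were higher and 2 lower, and of 12 immediate early genes tested 2 were higher. Over all genes tested, 23.4% were called higher and 23.8% lower, and counts near these shares are not read as particular to a list. The part of the tubule change in the members' changes was not tested. Among the 7 WT and 5 Het libraries outside the longest stretch, Amotl2 (0.45) and Ajuba (0.45) were called, and Myof (0.31), Rbms3 (-0.28), Ccn2 (0.30), Crim1 (0.14) and Axl (0.10) were not. In that setting 1511 of 14093 genes were called.

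In Dchs1 liver, 3 members were higher and 2 lower in Het among 9 tested, against 24.3% of 12526 genes higher and 25.4% lower. Ccn2 had 2.10, 8.01 and 29.1 CPM in WT and 4.90, 16.8 and 44.4 CPM in Het (n = 30 and 29), with 23 Het libraries above the WT median and 7 above every WT library (1.004 ± 0.20, edgeR adjusted p = 3.89e-05). Ajuba had 3.16, 5.80 and 7.68 CPM in WT and 3.24, 7.39 and 16.3 CPM in Het, and 13 Het libraries exceeded every WT library (0.38 ± 0.11, adjusted p = 0.00206). Crim1 went from a median of 12.1 to 14.2 CPM, with 25 Het libraries above the WT median (0.27 ± 0.068, adjusted p = 0.000800). Het libraries of both Ajuba and Ccn2 spread further up than WT libraries, and for Ajuba the lowest values of the groups were close.

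Amotl2 and Ccn1, both higher in Dchs1 Het hearts, were lower in Het livers. Amotl2 had 11.97, 23.2 and 36.2 CPM in WT and 8.30, 17.3 and 28.8 CPM in Het, with 21 of 29 Het libraries under the median WT value and 6 below every WT library (-0.41 ± 0.11, edgeR adjusted p = 0.00186). Ccn1 had 1.97, 4.92 and 11.8 CPM in WT and 1.57, 3.79 and 7.72 CPM in Het, with wide overlap (-0.38 ± 0.14, adjusted p = 0.0221), and was not called within the longest stretch (-0.34, adjusted p = 0.0903). Axl, Myof, Rbms3 and Tgfb2 changed by -0.14 to -0.04 and were not called. Among the 7 WT and 5 Het libraries outside the stretch, Ccn2 (1.08), Amotl2 (-0.58) and Crim1 (0.48) were called, and Ccn1 (-0.69) and Ajuba (0.22) were not. In that setting 1987 of 12523 genes were called.

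Immediate early genes rose in the same livers, 7 of 12 tested, among them Ier3 (0.68) and Egr1 (1.29), and none of the 12 was called lower. Their sum was 57.8, 103 and 335 CPM in WT and 69.1, 162 and 352 CPM in Het. Of 7 smooth muscle and pericyte markers tested 3 were higher, among them Rgs5 (0.65) and Kcnj8 (0.54), with sums of 22.1 to 56.2 CPM in WT and 24.6 to 77.5 CPM in Het. Of 6 hepatocyte markers 4 were lower and 2 higher, with sums of 79486 to 118390 CPM in WT and 77855 to 119560 CPM in Het, of 8 fibroblast markers tested 2 were higher and 2 lower, and of 10 endothelial markers 2 were higher and 3 lower. Over all genes tested, 24.3% were called higher and 25.4% lower, and counts near these shares are not read as particular to a list. What part these lists had in the members' changes was not tested.

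In Dchs1 lung only Ccn2 was called, 1 of 10 members, against 9.6% of 15069 genes higher and 10.4% lower. Ccn2 had 110, 162 and 233 CPM in WT and 127, 261 and 385 CPM in Het, and 17 of 30 Het libraries exceeded every WT library (0.57 ± 0.083, edgeR adjusted p = 4.33e-07). It was 0.62 without the 5 libraries that stood apart and 0.28, not called, among the 6 WT and 6 Het libraries outside the longest stretch. In the latter setting 6 of 14908 genes were called. The other 9 members changed by -0.09 to 0.16, with SE of 0.057 to 0.16, and the nearest to a call was Amotl2 (0.16 ± 0.088, adjusted p = 0.211). Of 10 fibroblast markers 5 were lower, among them Lum (-0.93) and Col3a1 (-0.80), with sums of 3290 to 5253 CPM in WT and 3564 to 5201 CPM in Het, and 2 of 10 endothelial markers were lower, with sums of 2673 to 4731 and 2702 to 4330 CPM. Heart muscle markers were present at low levels: 3 of 7 ventricular markers tested were lower, with sums of 389 to 1169.95 CPM in WT and 322 to 853 CPM in Het, and 2 of 4 atrial markers, with sums of 39.8 to 167 and 28.7 to 134 CPM. Of 14 immediate early genes 1 was higher and 3 lower, with sums of 920.4 to 2399 and 944 to 1863 CPM. Their part in the Ccn2 change was not tested.

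**Figure D5:**
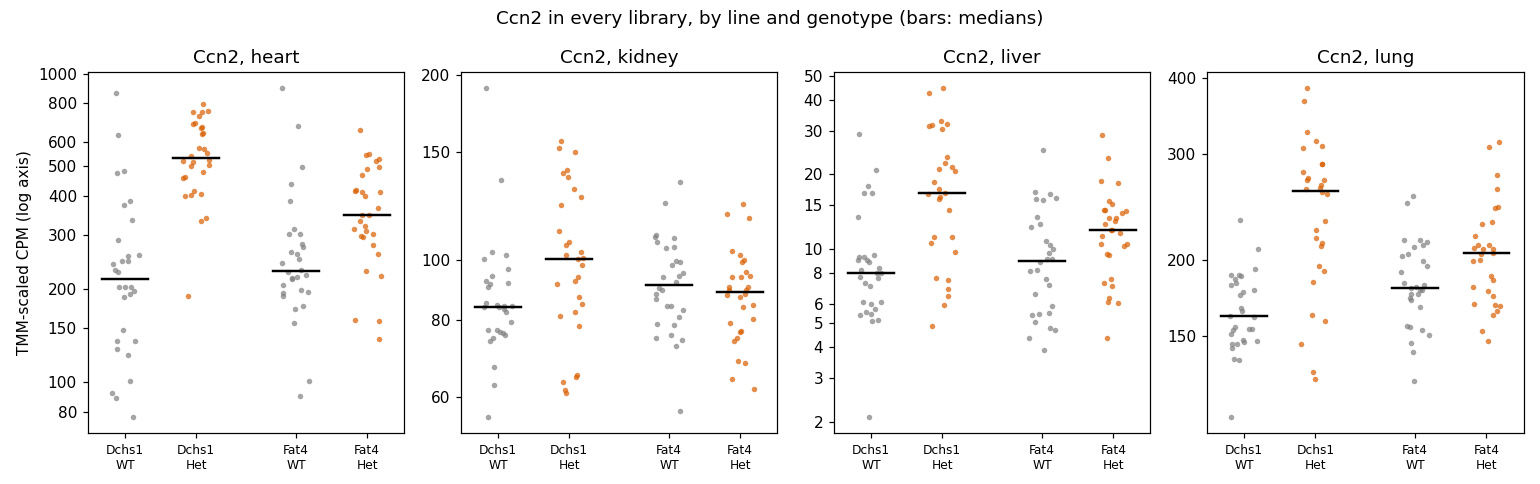
TMM-scaled CPM (log axis) of Ccn2 in every library of each tissue, grey for WT and orange for Het, with bars at the medians. In the Dchs1 line the Het median is above the WT median in all 4 tissues (533 against 215.6 CPM in heart, 261 against 162 CPM in lung). In the Fat4 line it is above in heart, liver and lung and not in kidney (89.0 against 91.3 CPM).

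Among the Fat4 comparisons, 1 member was called. Rbms3 in kidney had 17.6, 22.6 and 31.3 CPM in WT and 15.2, 18.7 and 29.7 CPM in Het, with 27 of 30 Het libraries under the median WT value and 11 below every WT library (-0.26 ± 0.053, edgeR adjusted p = 0.000486). Among the 6 WT and 6 Het libraries outside the longest stretch it changed by -0.24 and was not called (edgeR adjusted p = 0.999). In that setting 2 of 13868 genes were called. Over all Fat4 kidney libraries, 9.21% of 14014 genes were called higher and 7.87% lower. Rbms3 was thus lower in kidney of both lines, by -0.24 and -0.26. In the same Fat4 kidneys 7 of 10 endothelial markers were lower, among them Tek (-0.20) and Tie1 (-0.19), with sums of 439 to 646 CPM in WT and 405 to 595 CPM in Het. Of 9 smooth muscle and pericyte markers 3 were lower (sums of 212 to 322 and 185 to 306 CPM), and of 10 fibroblast markers 1 (257 to 471 and 186 to 475 CPM), and their part in the Rbms3 change was not tested. At an unadjusted p under 0.05, 4 of 10 members were past the threshold in Fat4 kidney, against 31.7% of all genes.

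In Fat4 heart, 0.969% of 13213 genes were called higher and 0.628% lower by edgeR, and 0 of 10 members were called, 0 of 10 also by limma on log2(TPM + 1) and 1 of the 9 that DESeq2 gave an adjusted p, Amotl2 (0.0358). At an unadjusted p under 0.05 there were 8 of 10 members, against 17.2% of all genes. The nearest were Amotl2, with 41.7, 72.6 and 100.3 CPM in WT and 53.8, 83.1 and 128 CPM in Het (0.22 ± 0.068, adjusted p = 0.0708), and Ankrd1, with medians of 1268 CPM in WT and 1446 CPM in Het (0.28 ± 0.093, adjusted p = 0.0925). Amotl2 was also called with the stretch as a covariate (adjusted p = 0.0471) and within the longest stretch (0.0495). Ccn2 had 90.1, 228 and 896 CPM in WT and 138, 348 and 654 CPM in Het, with 26 of 30 Het libraries above the WT median (0.39 ± 0.16, adjusted p = 0.178). Ccn1 had 23 of 30 Het libraries above the WT median (0.30 ± 0.13, adjusted p = 0.219). The ranges of all 4 genes overlapped.

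In Fat4 liver, 3.64% of 12484 genes were called higher and 3.51% lower, and 0 of 9 members were called by edgeR or DESeq2 and 0 of the 7 that limma tested, with 2 at an unadjusted p under 0.05 against 21% of all genes. Ccn2 had medians of 8.96 CPM in WT and 11.9 CPM in Het (0.33 ± 0.16, adjusted p = 0.221) and Amotl2 25.5 and 23.6 CPM (-0.19 ± 0.091, adjusted p = 0.208). In Fat4 lung, 0.11% of 15415 genes were called higher and 0.0259% lower, and 0 of 10 members were called by any of the 3 tools, with 1 at an unadjusted p under 0.05 (Ccn2, 0.17 ± 0.065, adjusted p = 0.305) against 10.6% of all genes. Leaving out the libraries that stood apart left these counts of calls in heart, liver and lung at 0.

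The difference of the Het change between the lines was tested itself, as an interaction in 1 fit per tissue. It was called for 12 of 39 member tests. In kidney 6 of 10 members differed, against 33.5% of all genes, each more positive in the Dchs1 line: Myof by 0.59 ± 0.082 (edgeR adjusted p = 3.05e-09), Amotl2 by 0.34 ± 0.076, Ccn2 by 0.29 ± 0.11, Ajuba by 0.27 ± 0.060, Crim1 by 0.24 ± 0.055 and Axl by 0.22 ± 0.065. In heart 3 of 10 differed, against 25.5% of all genes: Ccn2 by 0.69 ± 0.23 (adjusted p = 0.0204), Amotl2 by 0.25 ± 0.098 (0.0456) and Tgfb2 by -0.48 ± 0.13 (0.00230), which fell in Dchs1 heart and had 0.16 ± 0.072 in Fat4 heart. In liver 2 of 9 differed, Ccn2 by 0.69 ± 0.26 and Crim1 by 0.25 ± 0.079, against 23.6% of all genes, and in lung 1 of 10, Ccn2 by 0.39 ± 0.11, against 5%. Ccn2 was the only member whose Het change differed between the lines in all 4 tissues by this test, and that count did not hold under every alternative: Ccn2 lost its call within the longest stretch in kidney (adjusted p = 0.108) and liver (0.0810), and by limma on log2(TPM + 1) in liver (0.0773) and lung (0.194). Amotl2 in heart lost it in both (0.0752 and 0.0824), and Crim1 in liver within the longest stretch (0.0645). Rbms3 in kidney did not pass it (0.04 ± 0.078, adjusted p = 0.739).

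Whether the Het change differed among the 4 tissues of a line was tested with 3 degrees of freedom. In the Dchs1 line 6 of 10 members passed, against 52.2% of all genes. Amotl2 had the largest F (21.4, edgeR adjusted p = 4.63e-11), with changes of 0.48, 0.42, -0.41 and 0.16 in heart, kidney, liver and lung, followed by Myof (F = 12.3) with -0.16, 0.42, -0.04 and 0.06. Ccn2 (F = 7.53), Ccn1 (6.22), Ajuba (6.16) and Crim1 (5.36) also passed. In the Fat4 line 2 of 10 passed, against 7.13% of all genes: Rbms3 (F = 5.67, adjusted p = 0.0212), with -0.13, -0.26, 0.02 and -0.02 (limma on log2(TPM + 1), adjusted p = 0.172), and Amotl2 (F = 5.66, adjusted p = 0.0213), with 0.22, 0.09, -0.19 and 0.07. Amotl2 passed in both lines, although none of its single Fat4 changes was called.

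As lists, the 10 genes had a median log2 change of 0.19 in Dchs1 heart, 0.22 in kidney, -0.05 in liver over 9 tested, and 0.02 in lung, beside medians over all genes tested of -0.0041 to 0.0090. For Fat4 the medians were 0.15, -0.07, -0.03 and 0.03, beside -0.0014 to 0.0028. A further 13 YAP and TAZ targets were listed by name. The counts of this list and of those that follow stand beside the shares of all genes called in the same comparison, which in the Dchs1 line were 26.1% higher and 24.1% lower (heart), 23.4% and 23.8% (kidney), 24.3% and 25.4% (liver) and 9.6% and 10.4% (lung), and in the Fat4 line 9.21% and 7.87% (kidney) and 3.64% and 3.51% (liver). Many of the counts are near these shares, and nothing particular to a list is read from them. In Dchs1 heart 5 of 12 tested were higher and 1 lower (median 0.12), among them Gadd45a, a growth-arrest and DNA-damage gene (0.74 ± 0.083, from 6.66 to 11.7 CPM, edgeR adjusted p = 5.99e-11), and Asap1 (0.20 ± 0.036). In Dchs1 kidney 4 of 12 were higher, among them Arhgef17 (0.20 ± 0.032), and 4 lower, among them Igfbp3 (-0.25 ± 0.046). In Dchs1 liver 4 of 11 were higher, with Nt5e (0.53 ± 0.073) and Igfbp3 (0.66 ± 0.11), and 1 lower, and in Dchs1 lung 1 of 13 was higher (F3, 0.46 ± 0.12) and 1 lower (Igfbp3, -0.37 ± 0.065). Of the same list, in Fat4 Het, 3 of 12 were higher (among them Fjx1, 0.28 ± 0.059) and 3 lower in kidney, and 1 higher (Igfbp3, 0.48 ± 0.11) and 2 lower of 11 in liver, with 0 of 11 called in heart and 0 of 13 in lung by edgeR (3 and 2 at an unadjusted p under 0.05).

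Upstream of the targets, 12 Hippo kinases and adaptors and 8 genes for YAP, TAZ, TEAD and VGLL proteins were followed. Nf2, which encodes the upstream Hippo activator merlin, was lower in Dchs1 Het heart (-0.21 ± 0.028, from 76.9 to 67.7 CPM) and kidney (-0.11), and Amot was lower in heart (-0.35 ± 0.068). Wwc1, which encodes the adaptor KIBRA, was higher in Dchs1 Het kidney (0.38 ± 0.049, from 128 to 170 CPM) and lower in liver (-0.68 ± 0.077, from 42.5 to 26.5 CPM). In all, 0 of 11 kinases and adaptors were called higher and 3 lower in Dchs1 heart, 2 and 2 of 12 in kidney, 1 and 2 in liver and 0 in lung by edgeR (1 at an unadjusted p under 0.05). Of the coactivator list, 3 of 8 were higher and 1 lower in Dchs1 heart (Tead3, 0.13, and Wwtr1, the gene for TAZ, 0.14), 2 of 8 were higher in kidney, 2 of 6 in liver (Tead1, 0.88 ± 0.21, and Wwtr1, 0.26 ± 0.065) and 1 of 8 in lung (Tead3, 0.15). In Fat4 Het kidney, Amotl1 (-0.20) and Tead2 (-0.33) were lower and Sav1 (0.12) higher, and Wwc1 was lower in liver (-0.18).

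Ccn2 is also a TGF-beta response gene and Tgfb2 encodes a TGF-beta ligand, so 8 TGF-beta response genes were listed. In the Dchs1 line 2 of 8 were higher in heart (among them Smad7, 0.21), 1 of 7 in kidney (Smad7, 0.12), 2 of 8 in liver (among them Skil, 0.33) and 3 of 8 in lung, where 1 was lower. With Fat4, 0 of 8, 7, 8 and 8 were called in heart, kidney, liver and lung by edgeR, with 2, 1, 1 and 2 at an unadjusted p under 0.05.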

How the data were processed

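Poly(A) RNA of heart, kidney, liver and lung was sequenced as strand-specific single-end libraries, per the labels' protocols. For each line the authors deposited 1 table of estimated counts and 1 of TPM per gene (24475 identifiers, 24375 with a symbol). Of the deposited estimated counts, 15.3% (Dchs1) and 15.5% (Fat4) were not whole at a tolerance of 1e-06, and all were rounded before testing. The tools bcl2fastq 2.17 and FastQC and the build GRCm38 are listed, with no order, per the submitters' processing notes. For aligner and counter: not given in the sources used here.

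Het and WT libraries of each line and tissue were compared with edgeR 4.0.16 (R 4.3.3) by the quasi-likelihood F test after TMM scaling and filterByExpr (minimum count 10, minimum total 15), with Benjamini-Hochberg adjustment over all genes tested and a threshold of 0.05. SE is the log2 change over the square root of F. Line and tissue differences were interaction terms. The alternatives were DESeq2 1.42.0, its size factors in edgeR, no filter, limma 3.58.1 on log2(TPM + 1) for genes of at least 1 TPM in 20 libraries, the number stretch (library numbers with gaps of at most 5) as a covariate, the longest stretch only and leaving out libraries over 5 median absolute deviations from their comparison. Use of only the libraries outside the longest stretch was added after seeing the data. Correlations used log2 CPM with a prior count of 2. The scripts were tested on simulated data.

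The members and lists were chosen with earlier results of these data known. All 10 members are described; of 136 listed symbols 135 were measured. The other named genes are the 3 most like each member, and up to 2 of each list with the smallest p among those called in a comparison. Some results that this rule names are not reported here. No 2 libraries of a group were copies (the lowest chi-square per gene was 3.48). Promoters are from RefSeq (GRCm38.p6).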

Additional observations from a re-analysis of the deposited data

Results flagged for a closer look

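The Het change differed between the 2 lines for 12 of the 39 member tests, by the interaction term in edgeR. Over all genes tested the share that differed was 25.5% in heart, 33.5% in kidney, 23.6% in liver and 5% in lung. In heart the Dchs1 change minus the Fat4 change was 0.69 for Ccn2, 0.25 for Amotl2 and -0.48 for Tgfb2 (log2). In kidney it was 0.59 for Myof, 0.34 for Amotl2, 0.29 for Ccn2, 0.27 for Ajuba, 0.24 for Crim1 and 0.22 for Axl. In liver it was 0.69 for Ccn2 and 0.25 for Crim1, and in lung 0.39 for Ccn2.

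The Het change differed among the 4 tissues for 8 of 20 member tests. The share of all genes passing this test was 52.2% for Dchs1, against 7.13% for Fat4. The count of Dchs1 members passing is near its share, so nothing particular to these members is read from it. In the Dchs1 line F was 21.4 for Amotl2, 12.3 for Myof, 7.53 for Ccn2, 6.22 for Ccn1, 6.16 for Ajuba and 5.36 for Crim1. In the Fat4 line F was 5.67 for Rbms3 and 5.66 for Amotl2. The lines were bred and sampled separately, so a difference between the lines and a difference between their sets of libraries cannot be told apart.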

How the results depend on the processing

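Of the 22 Het changes called, 22 were called by DESeq2 and with its size factors, 21 with the stretch as a covariate, 20 without a filter, 20 by limma on log2(TPM + 1) and 18 within the longest stretch, and none of the 22 changed sign. In Dchs1 kidney limma called 6326 of 12684 genes, 4968 of them higher, against 6671 of 14142 and 3304 in the main fit. The median change over all genes there was 0.082 by limma and 0.0052 in the main fit. The part of this shift in the members' limma calls was not tested. Outside the longest stretch 7 of 22 were called. The counts of members called there were 2 in Dchs1 heart, 2 in kidney, 3 in liver and 0 in lung, and 0 in Fat4 kidney, from 5 to 7 libraries per genotype. In Fat4 heart 1 member was called by DESeq2, with the covariate and within the longest stretch. Line differences called fell to 1 (limma) and 0 (longest stretch) in liver and to 0 (limma) in lung, and tissue differences in the Fat4 line to 1 (limma). Positive pairs numbered 21 without the 2 farthest libraries and 103 on the TPM scale, against 33; the cause was not tested.

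Values that changed sign were mostly near 0 and uncalled. Outside the longest stretch they were Tgfb2 in Dchs1 kidney (0.24), Rbms3 in Dchs1 liver (0.0086), Myof (-0.074), Crim1 (0.040) and Tgfb2 (0.059) in Dchs1 lung, and Ajuba (-0.079), Axl (0.0062), Crim1 (0.0044) and Tgfb2 (0.024) in Fat4 kidney. By limma on log2(TPM + 1) they were Axl (-0.00082) and Myof (-0.0092) in Dchs1 lung, Crim1 in Fat4 kidney (0.011), Rbms3 (-0.018) and Crim1 (-0.022) in Fat4 liver, Axl in Fat4 lung (-0.017), the line differences of Axl in liver (0.014) and Ajuba in lung (-0.0095), and between WT tissues Amotl2 (-0.011) and Crim1 (-0.43) for heart against kidney, Ajuba for heart against liver (-0.0013), and Ccn1 (-1.01) and Axl (-1.43) for heart against lung. Within the longest stretch they were Ccn1 in Dchs1 lung (0.10) and the line differences of Tgfb2 in liver (-0.019) and Rbms3 in lung (0.0036). With DESeq2 size factors the line difference of Rbms3 in lung was 0.00088, and in the Fat4 line's WT libraries alone Rbms3 for heart against kidney was 0.034. Ankrd1 in liver, tested only without a filter, rested on 2 or 3 reads. The stretch settings were not run in Fat4 lung (1 stretch), nor the setting outside the longest stretch in Fat4 heart and liver. No paired analysis was possible because no library number is shared between groups.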
